A study of Oryza sativa Japonica Group with 6 samples.

Results

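Ammonium transporters of the AMT family were examined in developing rice seeds (Oryza sativa Japonica Group) on Affymetrix rice genome arrays. Members were all genes whose symbol or synonym starts with AMT1-, AMT2- or AMT3- once a leading Os is ignored. The gene table holds 9 such genes, and 8 of them had at least 1 probe set assigned to a single gene, out of 17905 genes measured in that way. These 8 genes were read by 10 probe sets, since AMT1-1 and AMT3-1 each had a pair. AMT1-3 had no probe set of its own in the annotation and was not analysed here. The table lists the names AMT1-2 and AMT1-3 for both of those genes, and the probe set was taken as AMT1-2 because its gene alone carries the synonym OsAMT1;2.

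The additional NH4Cl group held 3 biological replicates from containers whose soil surface received 400 mg of ammonium chloride around heading, with seeds labelled 15 days after flowering. The control group held 3 biological replicates without that supply, and the labels give no day for it. Plants of both groups had been fertilized at planting and again at 37 days after germination, and were grown at 28 °C in a 12 h day and 22 °C at night. The seeds came from 6 plants, material was pooled before extraction, and nothing says that each replicate came from its own plants, so the p-values cover the spread among these samples only, part of which may be technical. The question was how the added fertilizer changes expression in the seed.

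AMT proteins are membrane channels that assemble as trimers and carry ammonium into cells. Plant members fall into an AMT1 subfamily with high affinity for ammonium and a second subfamily, related to microbial Mep proteins, that holds AMT2 and AMT3 in rice. They are best known from roots, where they take ammonium up from the soil. In flooded paddy soil ammonium is the main form of nitrogen, which glutamine synthetase and glutamate synthase then bind into amino acids.

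The deposited table has 1 value per probe set and array on a scale read as log2, from 4.96 to 13.51, and array medians lay between 5.71845 and 5.71860. Differences between arrays were very small throughout: the median SD of 57194 rice probe sets over the 6 arrays was 2.25 millionths of a log2-scale unit, and 97.4% had an SD under 0.001. No difference between groups can thus be read as a fold change of RNA. Differences and SDs of the AMT probe sets are given below in millionths of a deposited log2-scale unit and also as multiples of each probe set's own within-group SD, which do not depend on the unit but do change when the arrays are scaled differently. Marker genes were read beside the seed label. Of endosperm markers such as glutelins and starch enzymes 8 of 9 lay above every reporter control probe set, as did 6 of 6 of the embryo and aleurone, 7 of 8 of green tissue and 1 of 3 of roots. That root marker was Lsi1, a silicon channel, while the silicon exporter Lsi2 and the iron transporter IRT1 did not. The glutelin GLUB-4, at 5.36, and RBCS1 of green tissue, at 5.17, also lay below the highest reporter. Each marker was read by its brightest probe set, and 33.1% of all rice probe sets, named or not, lay above the highest reporter. Seedlings are named in the extraction label, developing seed in the tissue label. The counts cannot decide between these labels, since most endosperm and most green tissue markers lay above the reporters. The highest marker mean was 13.51 for endosperm, 12.83 for embryo and aleurone, 11.37 for green tissue and 6.64 for roots.

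AMT1-1, AMT3-2 and AMT2-1 were the members with a signal above all 64 reporter control probe sets, which are designed against reporter and marker genes from other organisms. The highest reporter averaged 6.07 and the median reporter 5.34. Among all rice probe sets 33.1% lay above the highest reporter, beside 3 of 10 AMT probe sets, so the family's share was close to that of the whole array. AMT1-1 averaged 7.32, which was 1.25 above the highest reporter on the log2 scale. AMT3-2 averaged 6.65 and lay 0.57 above it, and AMT2-1 averaged 6.22 and lay 0.15 above it. Each of these 3 probe sets was above the highest reporter of its own array on 6 of 6 arrays. That count follows from the means and adds no support, since arrays differed far less than these gaps. The widest range of the 3 was 440 millionths, for AMT3-2. Probe sets differ in how strongly they bind, so these levels do not rank the genes against each other.

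The other 7 AMT probe sets lay within the range of the reporters. The brighter probe set of AMT3-1 came nearest, at 6.05, with 63 of 64 reporters below it and a gap of -0.02 to the highest. The dimmer probe set of AMT1-1 had 59 reporters below it at 5.76, AMT2-2 had 55 at 5.64, and the dimmer probe set of AMT3-1 had 55 at 5.62. AMT3-3 at 5.54 had 51, AMT2-3 at 5.48 had 44 and AMT1-2 at 5.42 had 39. A signal at these levels need not come from RNA of the gene, and absence of the transcript does not follow from it. The probe sets of AMT1-1 thus fell on both sides of the highest reporter, while both of AMT3-1 lay below it. AMT3-2 and the dimmer probe set of AMT3-1 have IDs ending in _x_at, which marks probe sets that can bind several transcripts, so both are uncertain.

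**Figure D1:**
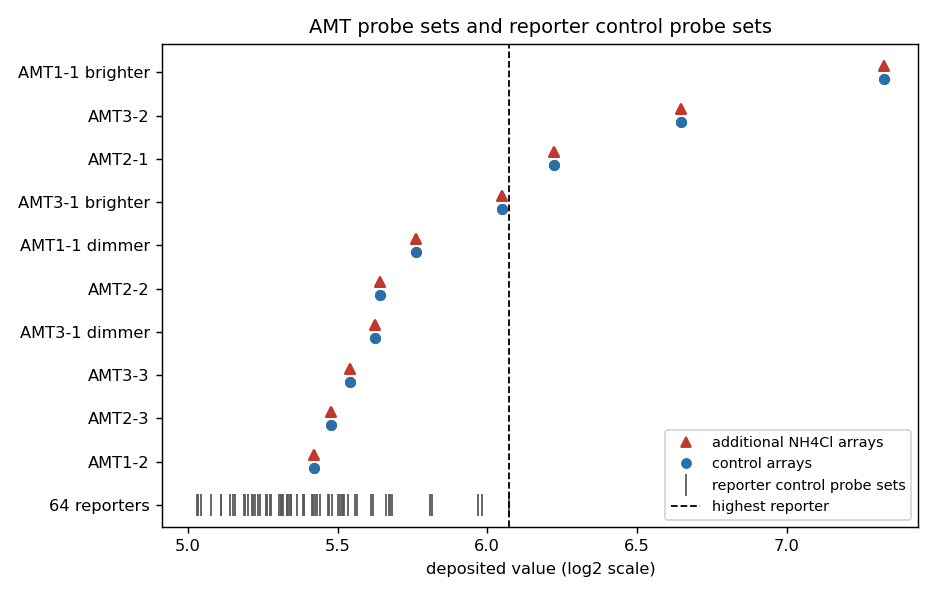
Deposited values on the log2 scale (horizontal) of the 10 AMT probe sets on each additional NH4Cl array (triangles) and each control array (circles), with the means of the 64 reporter control probe sets as ticks at the bottom. AMT1-1, AMT3-2 and AMT2-1 lie right of the dashed line at the highest reporter (6.07), and the arrays of a probe set cannot be told apart at this scale.

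No AMT probe set passed the test of additional NH4Cl against control. Limma called 0 of 10 at an adjusted p under 0.05, with adjusted p between 0.636 and 0.999, where 0.00699% of all rice probe sets were called. At an unadjusted p under 0.05 the count was also 0 of 10, where 11.1% of rice probe sets stood. The 3 arrays of each group overlapped for all 10 AMT probe sets, while 17.4% of rice probe sets had groups without overlap. Exact two-sided permutation tests over the 20 splits of the arrays gave p between 0.2 and 1.0 for the 10 probe sets, in a design that cannot go below 0.1. The mean was higher with additional NH4Cl for 6 of 10 probe sets as deposited, and in 50.4% of all rice probe sets. Centring each array on its median makes all 10 positive, and quantile normalization turns the sign of 6.

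AMT1-1 is expressed in roots and shoots of rice. The brighter probe set of this gene, LOC4336365, read 7.324958, 7.324960 and 7.324958 on the additional NH4Cl arrays, against 7.324955, 7.324960 and 7.324959 on the control arrays. Control replicate 1 was the lowest array and control replicate 2 the highest, with all additional NH4Cl arrays between them. The difference was 0.69 millionths (SE 1.69, n = 3 per group, 0.333 within-group SDs), with a 95% interval of -3.63 to 5.01 and an adjusted p of 0.96 by limma. Without control replicate 1 the difference was -0.905 millionths. The dimmer probe set deviated from its own mean by 6.72, -1.67 and -0.333 millionths with additional NH4Cl, against -0.0388, -4.92 and 0.238 in control. Additional NH4Cl replicate 1 stood above the rest there, and the difference of 3.15 millionths (SE 3.09) had an adjusted p of 0.817 by limma.

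AMT1-2 (LOC4330008) is known from rice roots, where ammonium induces it. On these arrays it lay among the reporters. Its deviations were -26.4, 23.1 and -10.5 millionths with additional NH4Cl, against -28.5, 34.6 and 7.66 in control. Each group held a high array and a low array, replicate 2 being the highest and replicate 1 the lowest in both. The difference was -9.16 millionths (SE 23.4, -0.32 within-group SDs), with a 95% interval of -68.3 to 50.0.

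AMT2-1 (LOC4339064) is expressed in roots and shoots of rice. It read 6.223932, 6.223949 and 6.223907 on the additional NH4Cl arrays, against 6.223931, 6.223929 and 6.223931 on the control arrays. Here additional NH4Cl replicate 2 was the highest array and replicate 3 the lowest, and the control arrays lay close together between them. The SD was 21.1 millionths with additional NH4Cl and 1.34 in control. Its difference was -1.14 millionths (SE 12.2, -0.0761 within-group SDs), with a 95% interval of -32.0 to 29.8, and it was 9.98 millionths without additional NH4Cl replicate 3 and -11.0 without replicate 2.

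AMT2-2 (LOC4327434) and AMT2-3 (LOC4327433) lie close together on one chromosome of the annotation, with 2 other genes between them, as AMT1-2 and AMT1-3 do with 0 between. AMT2-2 had the largest AMT difference relative to its spread. Its values were 5.640298, 5.640297 and 5.640289 on the additional NH4Cl arrays, against 5.640301, 5.640298 and 5.640304 on the control arrays. Every additional NH4Cl array lay below the control mean, but additional NH4Cl replicate 1 was above control replicate 2, so the groups overlapped. The difference was -6.16 millionths (SE 3.68, -1.37 within-group SDs), with a 95% interval of -15.5 to 3.17 and an adjusted p of 0.636 by limma. AMT2-3 deviated by 0.445, -0.305 and 0.681 millionths with additional NH4Cl, against -0.335, 0.835 and -1.32 in control. It differed by 0.547 millionths (SE 0.69), and control replicates 2 and 3 were its highest and lowest arrays.

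AMT3-1 (LOC4324937) is known in rice from roots colonized by mycorrhizal fungi. Its brighter probe set read 6.048689, 6.048690 and 6.048689 on the additional NH4Cl arrays, against 6.048690, 6.048690 and 6.048684 on the control arrays. Control replicate 3 alone stood low, and the other 5 arrays lay within a narrow band. The difference of 1.54 millionths (SE 2.08, 0.602 within-group SDs) became -0.521 without that array. The dimmer probe set had control replicate 3 as its highest array, with deviations of -0.111, 0.021 and 0.196 millionths with additional NH4Cl, against 0.246, -1.81 and 1.46 in control, and a difference of 0.0707 millionths (SE 0.958).

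AMT3-2 (LOC4334717) had the largest difference in deposited units and also the widest spread. It read 6.645894, 6.646271 and 6.646096 on the additional NH4Cl arrays, against 6.646237, 6.646161 and 6.645830 on the control arrays. The groups overlapped over most of their range, with control replicate 3 lowest and additional NH4Cl replicate 2 highest. The difference was 10.4 millionths (SE 166, 0.0515 within-group SDs), with a 95% interval of -409 to 430, and moved to -112 without control replicate 3 and to 107 without additional NH4Cl replicate 1. AMT3-3 (LOC4329628) had the smallest SD of the 10 probe sets over the 6 arrays, 0.358 millionths. Within groups its SD was 0.268 with additional NH4Cl and 0.482 in control, and the dimmer AMT3-1 probe set had a smaller one with additional NH4Cl, at 0.154. Its deviations were 0.135, -0.374 and 0.025 millionths with additional NH4Cl, against -0.152, 0.625 and -0.259 in control, and its difference was -0.143 (SE 0.319).

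**Figure D2:**
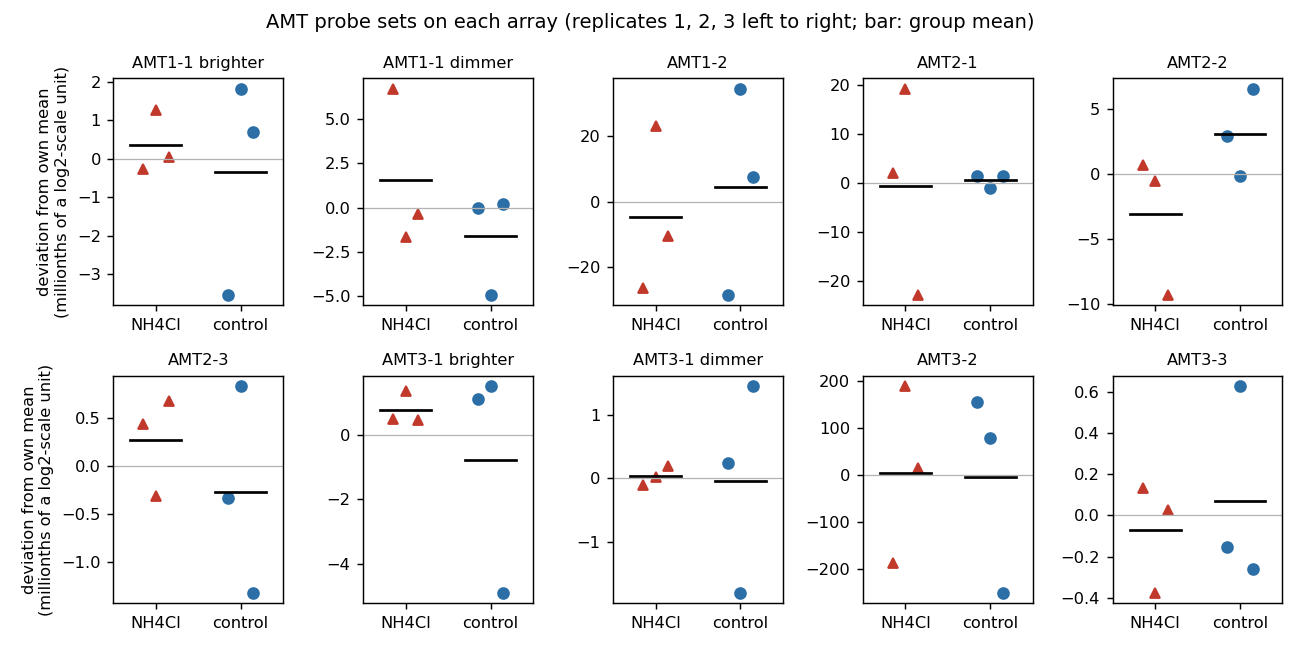
Deviation of each array from the probe set's own mean over 6 arrays, in millionths of a deposited log2-scale unit, for the 10 AMT probe sets, with additional NH4Cl arrays (triangles) left of control arrays (circles), replicates 1 to 3 from left to right and bars at group means. Vertical scales differ between panels, and the groups overlap in all 10.

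Absolute differences of the 10 AMT probe sets ran from 0.0707 to 10.4 millionths with a median of 1.34, close to the median of 1.41 over all rice probe sets. Reporters had absolute differences of 0.0103 to 3.21 millionths with a median of 0.417. Their median within-group SD was also smaller, at 0.671 millionths, against 3.17 for AMT and 2.13 for all rice probe sets. Groups did not overlap for 4 of 64 reporters, against 0 of 10 AMT probe sets and 17.4% of rice probe sets. The median t of the AMT probe sets was 0.0713 and that of all rice probe sets 0.0105. The last rice probe set to be called had an absolute t of 28.7. To reach that value, AMT3-3 would have needed a difference of 10.3 millionths, AMT1-1 one of 46.5 on its brighter probe set, AMT2-2 one of 100.0 and AMT3-2 one of 4510, each many times the difference measured.

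**Figure D3:**
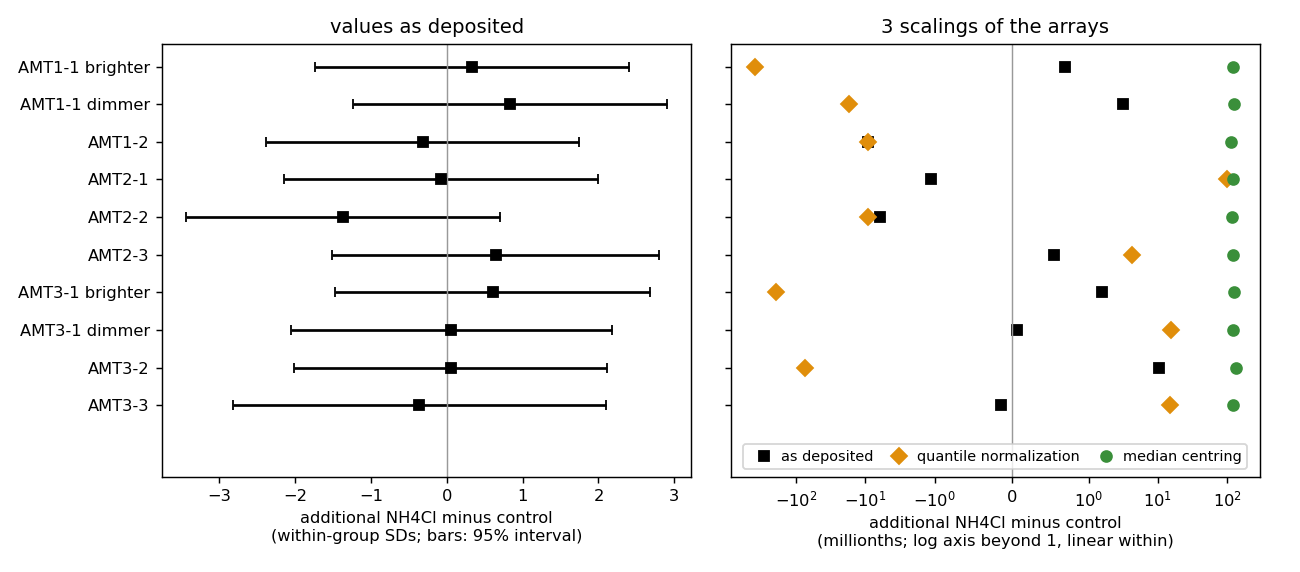
Additional NH4Cl minus control for each AMT probe set. On the left it is divided by the within-group SD, with bars for the 95% interval, and all 10 intervals include 0. On the right it is in millionths of a log2-scale unit under 3 scalings, on an axis that is logarithmic beyond 1, where median centring places all 10 at 113 to 133.

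The direction of the AMT differences depended on how the arrays were scaled. Centring every array on its median added 123 millionths to the differences of all probe sets, and 9 of 10 AMT probe sets then passed as higher, with AMT3-2 at an adjusted p of 0.346 by limma. In that fit 89.8% of all rice probe sets were called and 88.3% were called as higher, so the count says nothing particular of the family. After quantile normalization 0 of 10 passed, where 7.13% of rice probe sets did. The nearest was the brighter probe set of AMT3-1 at -193 millionths (SE 50.2) with an adjusted p of 0.107, followed by AMT3-3 at 14.8 (SE 4.06) with 0.12. The brighter AMT1-1 probe set stood at -388 millionths (SE 255) there, with an adjusted p of 0.45 by limma.

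Members differed widely in their spread over the arrays. SDs over the 6 arrays ran from 0.358 millionths for AMT3-3 to 182 for AMT3-2, an uncertain _x_at probe set. The next widest SD was 26.1, for AMT1-2. Spread also varied with signal over all rice probe sets. The median SD over 6 arrays was 0.817 millionths at levels of 5.0 to 5.5, 101 in the step of 0.5 that starts at 9.5, and 0.243 at 13.0 to 13.5, so it was highest at middle levels. All AMT probe sets lay in the lower part of that range, where the median SD grew with level. Set against probe sets of similar level, the 2 probe sets of AMT1-1 differed. The brighter one had an SD of 1.89 millionths, which 5.2% of the 3017 rice probe sets between 7.0 and 7.5 fell below, where the median was 38.7. The dimmer one, with 3.8 millionths, stood at 73.8% of its level range, where the median was 1.5. AMT1-2 was at the other end, with 26.1 millionths and 99.3% of the 17027 probe sets between 5.0 and 5.5 below it, where the median was 0.817. AMT3-2 stood at 82.9% of its level range and AMT3-3 at 15.4%. The SD was larger in control for 7 of 10 AMT probe sets, and in 44.6% of rice probe sets.

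**Figure D4:**
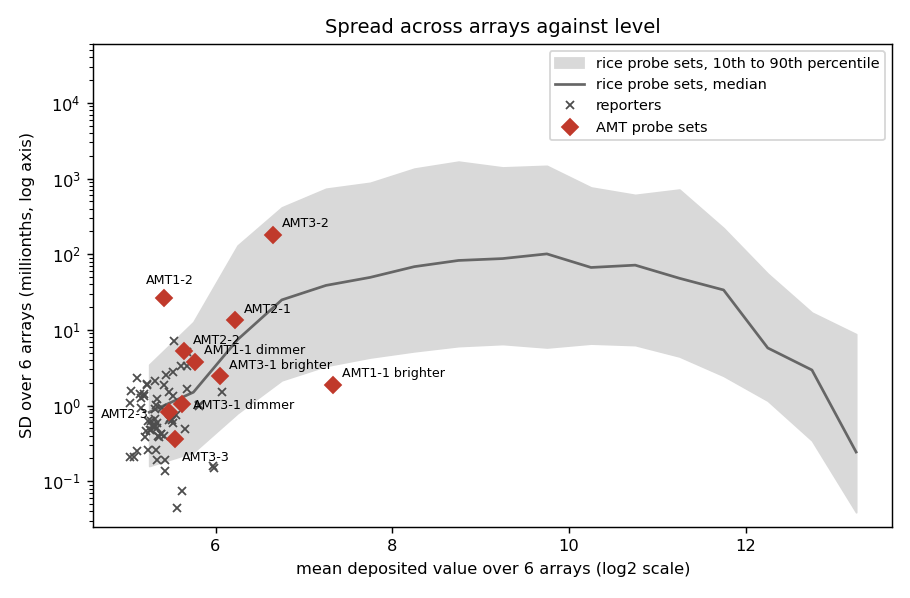
SD over the 6 arrays (vertical, log axis, millionths of a log2-scale unit) against mean deposited value (horizontal) for the AMT probe sets (diamonds) and the reporters (crosses), over the median and the 10th to 90th percentile of rice probe sets in steps of 0.5. The brighter AMT1-1 probe set lies below the band at its level (1.89 against a median of 38.7), the dimmer one above the median of its own (3.8 against 1.5), and AMT1-2 above it (26.1 against 0.817).

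Listed genes that handle nitrogen beside the AMT transporters did not pass either. The list held 26 genes of ammonium assimilation, nitrate, amino acid and urea transport, their regulators and potassium transport. Asparagine synthetases, aminotransferases and nitrite reductases had been planned, but none was on it. Fd-GOGAT was its only glutamate synthase and PROT1 its only amino acid transporter. Of the 26 genes 23 had a probe set, and 18 of these lay above the highest reporter, beside 33.1% of all rice probe sets. Each gene was read by its brightest probe set, and counted that way the AMT family had 3 of 8 genes above the highest reporter. The 33.1% counts every rice probe set, named or not and dimmer ones of a gene included, so these shares are not directly comparable. Limma called 0 of 23 over all rice probe sets, with a smallest adjusted p of 0.157. At an unadjusted p under 0.05 were 3 higher (against 5.09% of rice probe sets) and 1 lower (against 5.96%), and the groups did not overlap in 7 of 23 (against 17.4%). Of those 7 the additional NH4Cl arrays were all above the control arrays for GLN1-1, GDH2 and PROT1 and all below them for NRT2.3, UREF, NLP2 and NLP3, 4 genes that median centring turned positive. As deposited 13 of 23 means were higher with additional NH4Cl, against 50.4% of rice probe sets, and the median t was 0.313, against 0.0105. Quantile normalization turned the sign of 5 of the 23 and left 2 with no difference, and median centring turned 9.

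Glutamine synthetases, which bind ammonium to glutamate, did not pass the test. GLN1-3 had a mean of 10.94 in both groups and a difference of 428 millionths (SE 465), and GLN1-2 had 10.04 in both groups and -109 (SE 155). GLN1-1 was one of the 3 genes higher at an unadjusted p under 0.05. Its difference was 220 millionths (SE 60.6, 2.96 within-group SDs), and its groups did not overlap, with an adjusted p of 0.307 by limma. Fd-GOGAT, the ferredoxin-dependent glutamate synthase, stood at 34.0 millionths (SE 115), and NIA1, a nitrate reductase, at 1210 (SE 966).

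GDH2, a glutamate dehydrogenase that links ammonium with 2-oxoglutarate, had the smallest p of the list. It deviated by 2149, 1203 and 1697 millionths with additional NH4Cl, against -952, -1718 and -2380 in control. The 3 additional NH4Cl arrays all lay above the 3 control arrays, with a difference of 3370 millionths (SE 495, 5.55 within-group SDs) and an adjusted p of 0.157 by limma. After quantile normalization it passed as higher at an adjusted p of 0.0189, where 3.63% of rice probe sets did, the one list member to do so. These values are of the brightest of 3 GDH2 probe sets, and whether the others go the same way was not examined. GDH1 stood at -1.23 millionths (SE 4.43).

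Among transporters of other nitrogen forms, PROT1, a proline transporter, differed by 115 millionths (SE 34.4, 2.72 within-group SDs) without overlap of the groups, at an adjusted p of 0.337 by limma. NAR2.2, related to a partner protein of nitrate transporters, differed by -7.12 millionths (SE 12.0) and the nitrate transporter NRT2.2 by 2.12 (SE 2.39). The mean of NRT2.2 was 5.91 in both groups, below the highest reporter. NRT2.3, read by an uncertain _x_at probe set that also lay below it at 5.90, differed by -0.498 millionths (SE 0.161, -2.52 within-group SDs), at an adjusted p of 0.58 by limma. The urease accessory proteins UREG and UREF stood at -4.25 (SE 3.31) and -0.471 millionths (SE 0.199). UREF also lay below the highest reporter, at 6.02, and passed as lower after quantile normalization with an adjusted p of 0.000497, where 3.49% of rice probe sets did.

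Of regulators, CIPK23, a kinase that phosphorylates and inhibits AMT1 proteins in Arabidopsis, averaged 8.19 in both groups and differed by 5.85 millionths (SE 28.1). NLP1, of the NIN-like family of nitrate-responsive transcription factors, differed by 201 millionths (SE 360). NLP3 was the one gene lower at an unadjusted p under 0.05, at -21.3 millionths (SE 7.52, adjusted p of 0.404 by limma), with positive sign after median centring. The potassium carrier HAK5 averaged 11.15 in both groups with a difference of 10.5 millionths (SE 14.0), and the channel AKT1 differed by -730 (SE 369).

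**Figure D5:**
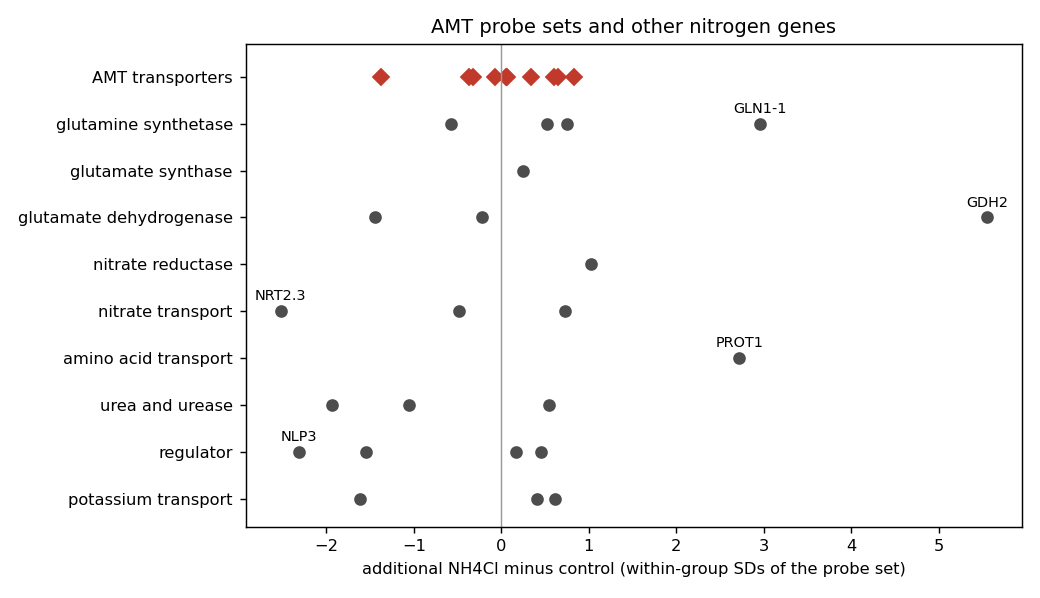
Additional NH4Cl minus control divided by the within-group SD (horizontal) for the 10 AMT probe sets (diamonds) and for 23 other nitrogen genes by role (circles), with names where the value is beyond 2 in size. AMT values lie between -1.37 and 0.83, and GDH2 at 5.55 is farthest from 0.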

How the data were processed

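Total RNA was labelled by the authors as biotinylated cRNA for Affymetrix rice genome arrays, per the labels' protocols. The deposited values were read as log2 from their range. Their log base, summarization, normalization and build were not given in those sources. The table holds 57381 probe sets on 6 arrays, and no pair of arrays shared more than 41 values. The 187 control probe sets (64 of them reporters) were left out of the tests.

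Gene names came from GEO's platform annotation, updated by gene ID with a RefSeq table of assembly ASM3414082v1. A single gene was given for 22436 probe sets and several for 95, and 34663 rice probe sets have no name here. Coordinates are not printed, since the authors' build is unknown. The test was limma 3.58.1 under R 4.3.3 on additional NH4Cl minus control (lmFit, then eBayes, two-sided, Benjamini-Hochberg over 57194 rice probe sets, threshold 0.05) without a block or filter. The script was tested on simulated data only with shifts far larger, in within-group SDs, than any AMT difference. Detection of smaller shifts was not checked. Printed SEs are unmoderated and 95% intervals are moderated. Exact permutation tests used scipy 1.17.1. Other nitrogen genes were each represented by the probe set with the highest mean. Per role the 2 highest means were to be named, and GLN1-1, NRT2.3, NLP2, NLP3 and the quantile result of UREF were named after their values were seen. From the list 8 name matches of unrelated genes were removed, and NRT2.1, NAR2.1 and CBL1 had no probe set of 1 gene. Members and lists were chosen with earlier results of these data known. Samples with the same replicate number did not deviate together (r of -0.062, 0.045 and -0.077 over all rice probe sets), so they were not paired. Alternatives were other scalings, filters, priors, a linear scale, a replicate block and each array left out. The small number of arrays limits precision.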

Additional observations from a re-analysis of the deposited data

How the results depend on the processing

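The count of 0 AMT probe sets called by limma held in every fit except median centring, which called 9, and the count of 0 other nitrogen genes held except after median centring (16 of 23, where 89.8% of rice probe sets were called) and quantile normalization (3 of 23, where 7.13% were: GDH2 higher, UREF and NLP2 lower). With the replicate block 0 AMT probe sets were called, with a smallest adjusted p of 0.746 by limma, for AMT1-2. The block lowered the SE of AMT1-2 from 23.4 to 5.95 millionths, while that of AMT2-2 rose from 3.68 to 4.86. That block changed no call on AMT or other nitrogen genes. Above the reporters were 10 AMT probe sets against the median reporter instead of 3, and 4, adding AMT3-1, against the second highest reporter, their 95th percentile or the highest fungal control, an alternative chosen after seeing the data. Fits without dim probe sets kept 5 (median level) or 3 (highest reporter) of the AMT probe sets, and the fit without _s_at and _x_at kept 8.

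No AMT difference passed with an array left out, but most signs were not stable. Without 1 array the difference in millionths ran from -0.905 to 1.77 and from 0.574 to 4.77 for the brighter and dimmer AMT1-1 probe sets, from -25.7 to 5.82 for AMT1-2, from -11.0 to 9.98 for AMT2-1, from -8.02 to -3.05 for AMT2-2, from 0.0237 to 1.1 for AMT2-3, from -0.521 to 2.66 and from -0.817 to 0.817 for the AMT3-1 probe sets, from -112 to 107 for AMT3-2 and from -0.308 to 0.134 for AMT3-3. Median centring turned AMT1-2 to 113, AMT2-1 to 121, AMT2-2 to 116 and AMT3-3 to 122, which the added shift of 123 gives by construction. Quantile normalization turned AMT1-1 to -388 and -17.3, AMT2-1 to 99.4, AMT3-1 (brighter) to -193, AMT3-2 to -75.1 and AMT3-3 to 14.8, and the cause was not tested. Signals within the range of the reporters limit what 7 of the 10 probe sets can show.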

Other observations

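Over the 6 arrays the 10 AMT probe sets shared no common order. Control replicate 2 was the highest array for 5 of them and the lowest for 2, while control replicate 3 was the highest for 2 and the lowest for 3. Pearson's r between pairs of AMT probe sets ran from -0.83 to 0.83 over 45 pairs with a median of -0.01. This is a description over 6 arrays whose normalization is not known. Probe sets of one gene did not follow each other, with r of -0.35 for AMT1-1 and -0.74 for AMT3-1.

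The named genes whose 6 values were most like those of the brighter AMT1-1 probe set, among 3187 probe sets of named genes, were OsSUS5, of the sucrose synthase family, at r = 0.962, ART1, a transcription factor of aluminium tolerance, at 0.954, and AT15 at 0.954. Picked as the highest of 3187 over only 6 arrays, such r values can arise by chance and were not tested. OsSUS5 and AT15 averaged 5.35 and 5.47, below the highest reporter at 6.07, and the differences of all 3 genes between groups were 0.0253, 2.6 and 1.34 millionths.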
